A study of Homo sapiens with 14 samples.

Results

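A set of 39 genes was examined that are run by, or act beside, the transcription factor ATF4 in amino acid supply. It holds ATF4 and other stress regulators, enzymes of asparagine, serine and one-carbon metabolism, amino acid transporters, and the cytosolic aminoacyl-tRNA synthetases with the tRNA exporter XPOT. The genes were taken from a list of names, which sets no threshold on a measured value, and matched to the symbols of the gene tables. All 39 were found among the 26732 genes listed for both cell lines, and all 39 passed the filter on low counts in both. RNA was sequenced from A549 and H1792 cells, established human lung adenocarcinoma lines, 48 h after addition of 0.1 µM AMG900, an inhibitor of the aurora kinases, or of its solvent DMSO. A549 gave 4 DMSO and 4 AMG900 libraries and was grown in DMEM, whereas H1792 gave 3 DMSO and 3 AMG900 libraries and was grown in RPMI 1640, and no group carried another treatment or allele. Each line stands for 1 tumour, and line, medium and table cannot be told apart in any comparison between them. The treatment protocol in the labels gives 3 replicates per treatment although A549 has 4, and the labels do not say that libraries came from separate days, so p-values measure the spread between these dishes.

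When amino acids run short or proteins misfold in the endoplasmic reticulum, kinases phosphorylate the initiation factor eIF2. General translation then slows while the ATF4 mRNA is translated more, so that ATF4 activity is controlled to a large part after transcription. With C/EBP partners the ATF4 protein binds a composite element, the C/EBP-ATF response element, in genes that make, import and charge amino acids. ATF4 also drives DDIT3 (CHOP), TRIB3 and CHAC1, which act in feedback and in the later phases of the stress response. Cancer cells, lung adenocarcinoma among them, use this program for serine, one-carbon units and cystine.

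Promoter windows show how common that element is among the genes studied. Windows from 250 bases before to 50 bases after the gene start were taken from RefSeq (GRCh38.p14) for 33 of the 39 genes, and NUPR1, PSPH, SHMT2, ALDH1L2, SLC7A11 and LARS were not matched. The core TGATGNAA was searched on both strands. At least 1 window held it for 14 of the 33 genes (42.4%), against 4.46% of all 27305 genes with a window. Members had 1 to 3 windows each, so that genes with several windows had more chances of a match. The 39 genes were listed as ATF4 genes, so the difference describes the list and was not tested. Of the cytosolic synthetases with a window, 7 of 10 held the core, and 7 of 23 of the other members did. The stretches below are those of the members with a match whose values are given in every library further on, with the match in capitals. They read 5′ to 3′ on the strand of the gene, so that a match on the opposite strand appears as TTNCATCA. A match is a description of letters and not a bound site. For ASNS (chr7:97872458-97872487, minus strand), SLC38A1 (chr12:46266502-46266531, minus strand), SLC1A5 (chr19:46784893-46784922, minus strand) and SLC1A4 (chr2:64989381-64989410, plus strand), 30 bases around the match are shown. For CHAC1 (chr15:40953221-40953320, plus strand), AARS (chr16:70289640-70289739, minus strand) and IARS (chr9:92293698-92293797, minus strand), 100 bases of the window that hold it are shown, all of them upstream of the gene start. These coordinates are of GRCh38.p14, and those given further on for whole genes are of GRCh37.
ASNS: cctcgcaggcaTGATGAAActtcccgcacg
SLC38A1: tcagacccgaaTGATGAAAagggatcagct
SLC1A5: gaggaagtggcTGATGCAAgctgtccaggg
SLC1A4: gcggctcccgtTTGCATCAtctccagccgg
CHAC1: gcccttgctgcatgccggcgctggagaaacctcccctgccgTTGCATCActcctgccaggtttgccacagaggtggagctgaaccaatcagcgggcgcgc
AARS: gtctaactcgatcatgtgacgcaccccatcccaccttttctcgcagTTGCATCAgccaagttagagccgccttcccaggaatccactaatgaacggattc
IARS: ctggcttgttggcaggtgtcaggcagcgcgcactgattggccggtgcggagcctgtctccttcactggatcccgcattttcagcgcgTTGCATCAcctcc

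The form TTGCATCA, or TGATGCAA on the other strand, stood in SLC1A5, SLC1A4, CHAC1, AARS and IARS, and ASNS and SLC38A1 carried TGATGAAA. Genes that share a core did not share a direction. Among members with a window, the core was in 1 of 8 that were called higher with AMG900 in A549, 10 of 16 called lower and 3 of 9 not called. In H1792 it was in 3 of 9 called higher, 2 of 6 called lower and 9 of 18 not called. These shares moved with the fit: with a term for transcript GC content they were 0 of 2, 7 of 14 and 7 of 17 in A549, and 5 of 8, 5 of 12 and 4 of 13 in H1792.

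Counts per library lay between 4254644 and 18962883 in A549 and between 42760874 and 79902934 in H1792. A549 DMSO replicate 1 was the smallest library, and its chi-square per gene against the other A549 DMSO libraries was 12.9 to 15.5, while those differed among themselves by 3.24 to 4.58. Of 5 epithelial markers, the keratin genes KRT8 and KRT18 were high in both lines (at least 246 CPM in every library), but EPCAM stayed below 0.540 CPM in A549 and CDH1 at or below 1.04 CPM in H1792. The summed level of the 5 was 4473 to 5653 CPM with DMSO and 6106 to 6878 CPM with AMG900 in A549, where KRT8, KRT18, KRT19 and CDH1 rose, and 659 to 819 and 818 to 829.8 CPM in H1792, where KRT19 rose. Of 5 leukocyte markers, PTPRC and CD3E were at or near 0 throughout, and the sum, mostly CD14, was 2.09 to 6.35 and 10.2 to 12.0 CPM in A549, where CD14 rose, and 1.52 to 1.82 and 2.61 to 2.97 CPM in H1792. The 3 endothelial markers summed to 0.224 to 5.92 and 0.323 to 1.24 CPM in A549, and to 3.91 to 16.1 and 8.09 to 9.15 CPM in H1792, where PECAM1 and CDH5 rose. The highest sum in each line came mostly from VWF in DMSO replicate 2, at 5.83 CPM in A549 and 10.6 CPM in H1792. CDH5 stayed below 0.467 CPM in every library. The part of these markers in the results was not tested. Levels are CPM, read counts relative to the TMM-scaled size of the library, computed within each line, and in bulk RNA fewer cells and less RNA per cell cannot be told apart.

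With AMG900 some of the 39 genes rose and others fell, as across all genes, and falls outnumbered rises among the members in A549. In A549, 9 rose and 18 fell, and in H1792, 10 rose and 8 fell, at an FDR of 0.01 in edgeR's quasi-likelihood test, with p-values adjusted after Benjamini and Hochberg across every tested gene. Over all genes tested, 17.2% were called higher and 17.8% lower in A549, so 23.1% of the members were called higher, a share closer to the background than the 46.2% called lower. In H1792 the background was 16.2% higher and 18.8% lower, against 25.6% and 20.5% of the members. The median log2 fold change of the members was -0.27 in A549 and 0.06 in H1792, beside -0.01 and 0.01 over all genes tested. ATF5, DDIT3, NUPR1, CHAC1, STC2 and SARS were called higher in both lines (6 members, where 7.29% of the 12625 genes tested in both were). PSAT1, MTHFD2, SLC7A11, SLC38A1, SLC38A2, XPOT, IARS and LARS were called lower in both (8 members, background 9.31%). Neither line gave a call for 9 members, ATF4 itself among them. Every AMG900 library lay above every DMSO library for 10 members and below for 20 in A549, where 21.9% and 22% of genes did so. The corresponding numbers in H1792 were 14 and 8, with a background of 30.1% and 29.6%. For a single gene the smallest p of the two-sided exact permutation test is 0.0286 with 4 against 4 libraries and 0.1 with 3 against 3. These counts rest on a measure that moved with GC content. Called-higher members had transcripts of 49.5 to 66.2% GC in A549 and 49.95 to 61.5% in H1792, and called-lower members had 35.4 to 61.3% and 35.4 to 43.3%. With a spline on transcript GC content in the fit, 3 members were called higher and 15 lower in A549, and 9 higher and 14 lower in H1792, where 13.7% and 18.7% of genes were in A549 and 14.5% and 23% in H1792. Without A549 DMSO replicate 1 the A549 numbers were 9 higher and 21 lower.

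**Figure D1:**
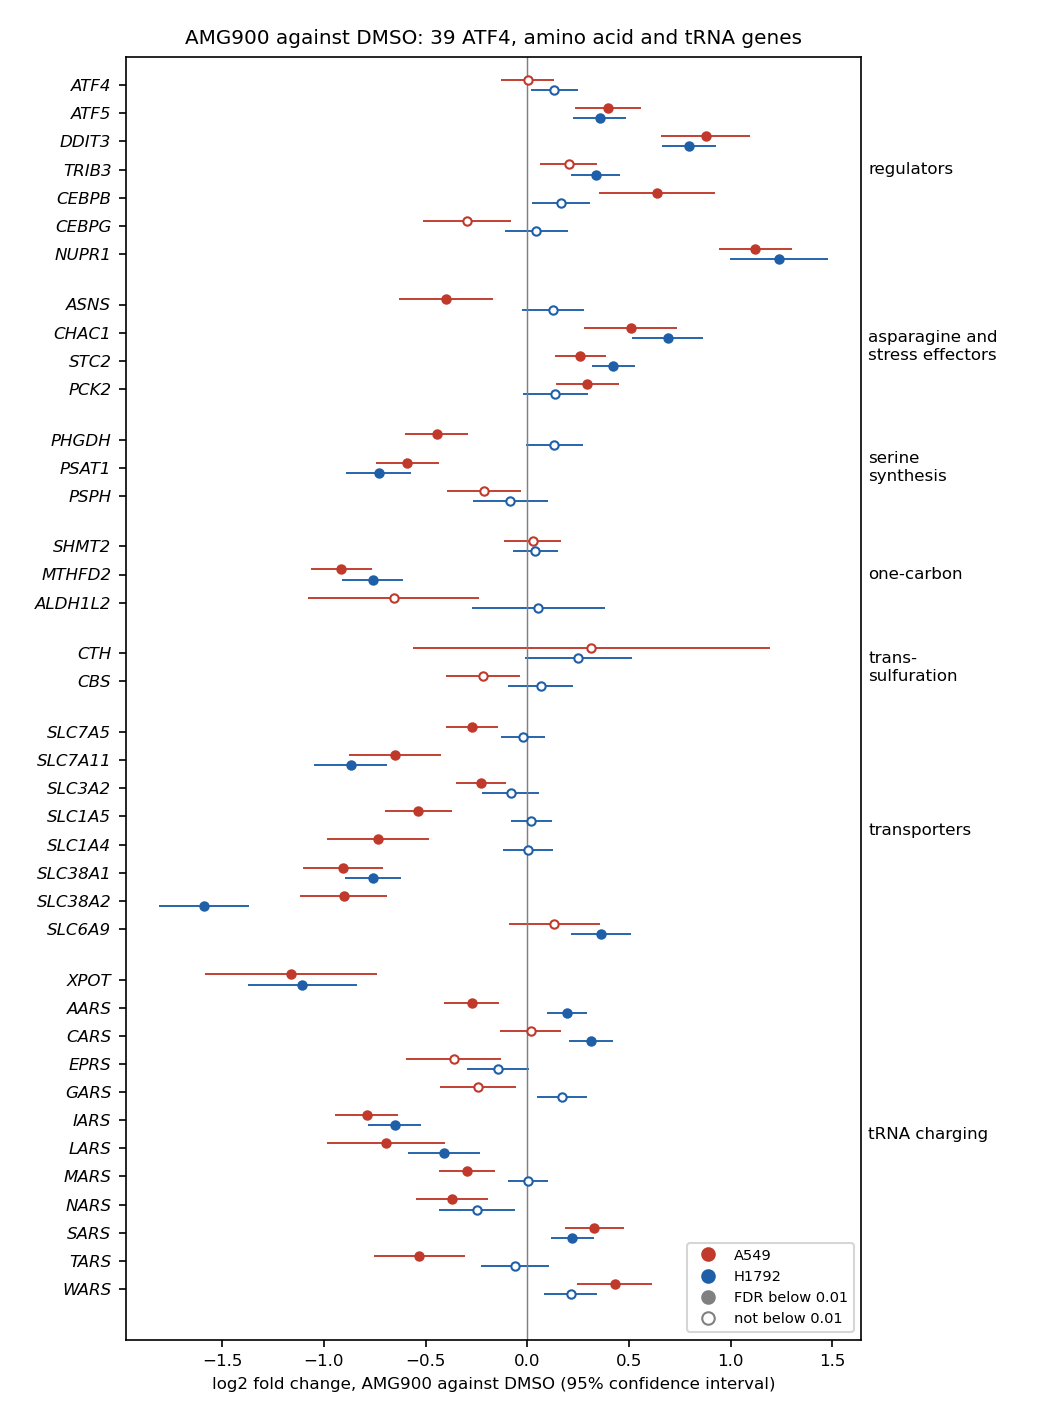
Log2 fold change of AMG900 against DMSO (horizontal axis, with 95% confidence interval) for the 39 members, grouped by role, in A549 (red) and H1792 (blue). Filled points have an FDR below 0.01. NUPR1 is farthest to the right in both lines, at 1.12 and 1.24, and farthest to the left are XPOT in A549 (-1.16) and SLC38A2 in H1792 (-1.59).

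Of the 7 regulators, none was called lower in either line, though with the GC spline CEBPB was in H1792 (-0.20). The background was 17.2% higher and 17.8% lower in A549, and 16.2% and 18.8% in H1792. ATF5, DDIT3, CEBPB and NUPR1 rose in A549, and ATF5, DDIT3, TRIB3 and NUPR1 rose in H1792. ATF4 (chr22:39915700-39918688, GRCh37, protein-coding, as are all members) gave 822, 845, 841 and 862 CPM with DMSO and 889, 883, 787 and 818 CPM with AMG900 in A549. The groups overlapped, and the log2 fold change was 0.00 ± 0.06 (SE) with a 95% interval of -0.13 to 0.13 (edgeR adjusted p = 0.979). In H1792 ATF4 gave 747, 688 and 677 CPM with DMSO and 775, 778 and 762 CPM with AMG900. All treated libraries lay above all controls, yet the log2 fold change of 0.13 ± 0.05 (SE) did not pass the threshold (edgeR adjusted p = 0.0548). Without H1792 DMSO replicate 1 it did, the only 1 of 6 fits with a library left out to do so. With the GC spline the ATF4 values were -0.15 in A549 and -0.03 in H1792, neither of them called. ATF4 mRNA was, per kilobase of transcript, among the 3 most abundant of the 39 genes in all 4 groups.

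DDIT3 (chr12:57910371-57915520), which encodes the pro-apoptotic factor CHOP, gave 30.1, 30.5, 32.5 and 32.6 CPM with DMSO and 66.6, 60.9, 53.0 and 51.6 CPM with AMG900 in A549. No library of the groups overlapped, and DDIT3 rose by 0.88 ± 0.10 (SE) on the log2 scale, 1.84-fold higher (edgeR adjusted p = 7.19e-06). In H1792 it started higher, at 78.2, 82.3 and 72.7 CPM with DMSO and 134, 138 and 132 CPM with AMG900. Again the groups were apart, and the gene rose by 0.79 ± 0.06 (SE) on the log2 scale, 1.73-fold higher (edgeR adjusted p = 6.29e-06). The 3' end of DDIT3 overlaps that of MARS by 982 bases on the opposite strand. Whether strand was used in counting is not given in the sources used here, so reads from the overlap cannot be told apart.

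NUPR1 (chr16:28544029-28550329), a small chromatin-associated stress protein, had the largest rise of the 39 genes in both lines. Its levels in A549 were 110.4, 91.2, 92.8 and 89.2 CPM with DMSO and 196, 199.9, 205 and 229 CPM with AMG900. All treated libraries lay far above the controls, and NUPR1 rose by 1.12 ± 0.08 (SE) on the log2 scale, 2.18-fold higher (edgeR adjusted p = 7.74e-08). H1792 held far less of it, 3.59, 3.41 and 3.67 CPM with DMSO and 9.07, 7.99 and 8.04 CPM with AMG900. The groups did not overlap there either, and NUPR1 rose by 1.24 ± 0.11 (SE) on the log2 scale, 2.35-fold higher (edgeR adjusted p = 1.42e-05). DDIT3 and NUPR1 kept their calls in both lines with the GC spline, at 0.81 and 1.07 in A549 and 0.71 and 1.17 in H1792. ATF5, a factor related to ATF4, rose by 0.40 and 0.36, but its values with the GC spline were 0.02 and 0.05, without a call. CEBPB, a C/EBP partner of ATF4, rose by 0.64 in A549 and stood at 0.17 in H1792 without a call. The A549 call was lost with the GC spline, at 0.19. Its A549 DMSO replicate 1 was well above the other 3 controls and just under the lowest treated library, and without it the rise was 0.83. TRIB3, a pseudokinase that restrains ATF4, rose by 0.34 in H1792 and stood at 0.20 in A549, while CEBPG, another C/EBP partner, stood at -0.30 and 0.05. The GC spline took the H1792 value of TRIB3 to 0.00, without a call, and that of CEBPG to 0.32, called higher.

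Among the asparagine and stress effectors, CHAC1 and STC2 rose in both lines, PCK2 rose in A549, and ASNS fell in A549. CHAC1 (chr15:41245160-41248710), which breaks down glutathione, gave 36.4, 36.8, 46.1 and 41.6 CPM with DMSO and 50.4, 53.8, 63.8 and 61.9 CPM with AMG900 in A549. The groups were apart, and CHAC1 rose by 0.51 ± 0.11 (SE) on the log2 scale, 1.42-fold higher (edgeR adjusted p = 0.00135). In H1792 the values were 22.3, 19.2 and 21.5 CPM with DMSO and 34.9, 35.1 and 31.9 CPM with AMG900. There was no overlap, and CHAC1 rose by 0.69 ± 0.08 (SE) on the log2 scale, 1.61-fold higher (edgeR adjusted p = 6.32e-05). Its A549 value with the GC spline was 0.09 without a call, while the H1792 call was kept at 0.36.

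STC2 (chr5:172741726-172755450), a secreted glycoprotein of the stress response, gave 332, 321, 305 and 316 CPM with DMSO and 382, 379, 381 and 383 CPM with AMG900 in A549. The treated libraries were tightly grouped above all controls, and STC2 rose by 0.26 ± 0.06 (SE) on the log2 scale, 1.20-fold higher (edgeR adjusted p = 0.00218). In H1792 STC2 gave 447, 423 and 429 CPM with DMSO and 574, 592 and 576 CPM with AMG900. The gap there was wider, and STC2 rose by 0.42 ± 0.05 (SE) on the log2 scale, 1.34-fold higher (edgeR adjusted p = 5.78e-05). STC2 was called with the GC spline in H1792 (0.35) and not in A549 (0.20). The A549 call held in 6 of 8 fits with a library left out and was lost without DMSO replicate 3 and without DMSO replicate 4.

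ASNS (chr7:97480989-97501854), asparagine synthetase and a textbook ATF4 target, gave 139, 153, 117 and 111 CPM with DMSO and 105, 93.1, 109 and 86.4 CPM with AMG900 in A549. All treated libraries lay below all controls, though by a narrow margin, and ASNS fell by 0.40 ± 0.11 (SE) on the log2 scale, 1.32-fold lower (edgeR adjusted p = 0.00674). The call was kept in 4 of 8 fits with a library left out and was lost without DMSO replicate 2 and without AMG900 replicate 1, 2 or 4. Its value with the GC spline was -0.11, not called. In H1792 ASNS gave 51.0, 58.2 and 57.6 CPM with DMSO and 58.0, 60.2 and 63.9 CPM with AMG900, overlapping groups with a log2 fold change of 0.13 ± 0.07 (SE) (edgeR adjusted p = 0.15). The GC spline raised that value to 0.33, which was called higher. PCK2, the mitochondrial phosphoenolpyruvate carboxykinase, rose by 0.29 in A549, a call lost without DMSO replicate 2 or 4 or AMG900 replicate 3, and stood at 0.14 in H1792. Its A549 value turned to -0.05 with the GC spline, without a call.

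Serine synthesis runs from PHGDH, its first enzyme, through PSAT1 to PSPH, and none of these 3 members rose. The background called higher was 17.2% in A549 and 16.2% in H1792. Called lower were 2 of the 3 in A549 and 1 in H1792 (background 17.8% and 18.8%). PSAT1 (chr9:80912041-80945009) fell in both lines. It gave 265, 305, 299 and 284 CPM with DMSO and 208, 185, 198 and 176 CPM with AMG900 in A549. Each treated library was well below the lowest control, and PSAT1 fell by 0.59 ± 0.07 (SE) on the log2 scale, 1.5-fold lower (edgeR adjusted p = 1.42e-05). H1792 values were 60.7, 70.0 and 66.5 CPM with DMSO and 37.3, 39.8 and 41.8 CPM with AMG900. The groups did not overlap, and PSAT1 fell by 0.73 ± 0.07 (SE) on the log2 scale, 1.66-fold lower (edgeR adjusted p = 2.78e-05). PHGDH (chr1:120191034-120286841) gave 258, 239.7, 222 and 242 CPM with DMSO and 177, 179, 162 and 189 CPM with AMG900 in A549. The groups were apart, and PHGDH fell by 0.44 ± 0.07 (SE) on the log2 scale, 1.36-fold lower (edgeR adjusted p = 1.60e-04). Its H1792 values, 277, 235 and 248 CPM with DMSO and 277, 279 and 278 CPM with AMG900, overlapped, with a log2 fold change of 0.13 ± 0.06 (SE) (edgeR adjusted p = 0.102). PSPH, the last step, stood at -0.21 and -0.08, without a call. PSAT1 in both lines and PHGDH in A549 were also called lower with the GC spline.

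Of the 3 members of the mitochondrial one-carbon group, MTHFD2 alone was called, and it was lower in both lines. Over all genes tested, 17.8% were called lower in A549 and 18.8% in H1792. With the GC spline 2 of the 3 were called lower in each line (background 18.7% and 23%). A group of 3 is too small to set its share against these. MTHFD2 (chr2:74413299-74444692), the dehydrogenase and cyclohydrolase that follows SHMT2, gave 166, 171, 162 and 170.2 CPM with DMSO and 93.5, 91.7, 89.2 and 81.5 CPM with AMG900 in A549. Controls were close to each other and far above all treated libraries, and MTHFD2 fell by 0.91 ± 0.07 (SE) on the log2 scale, 1.88-fold lower (edgeR adjusted p = 1.09e-07). In H1792 it gave 102, 115 and 113 CPM with DMSO and 61.2, 64.5 and 69.3 CPM with AMG900. Groups were again separate, and MTHFD2 fell by 0.76 ± 0.07 (SE) on the log2 scale, 1.69-fold lower (edgeR adjusted p = 1.54e-05). It remained called lower with the GC spline, at -0.54 and -0.47. SHMT2, which splits serine into glycine and a one-carbon unit, stood at 0.03 and 0.04, but at -0.24 and -0.20 with the GC spline, both called lower. ALDH1L2, which oxidises 10-formyl-tetrahydrofolate, stood at -0.66 and 0.06, and in A549 it was called lower when DMSO replicate 1 was left out. The transsulfuration enzymes CBS and CTH, which turn homocysteine into cysteine, gave no call. CBS stood at -0.22 and 0.07, and CTH, at 0.711 to 1.97 CPM in A549, at 0.31 and 0.25. The GC spline gave CBS -0.57 and -0.22, both called lower, and CTH 0.45 in H1792, called higher.

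Of the 8 amino acid transporters, 7 fell in A549 and 3 in H1792 (background 17.8% and 18.8% of genes). SLC6A9, a glycine transporter, rose in H1792 by 0.36, a call lost with the GC spline at 0.05. The GC spline gave 6 lower calls in each line (background 18.7% in A549 and 23% in H1792). The glutamine and neutral amino acid carriers SLC38A1 and SLC38A2 and the cystine importer SLC7A11 fell in both lines. SLC38A2 (chr12:46751971-46766556) gave 44.4, 37.3, 37.7 and 39.4 CPM with DMSO and 21.2, 21.5, 21.8 and 19.9 CPM with AMG900 in A549. Treated libraries were close to each other and far below the controls, and SLC38A2 fell by 0.90 ± 0.10 (SE) on the log2 scale, 1.87-fold lower (edgeR adjusted p = 4.52e-06). In H1792 it gave 32.5, 42.1 and 35.4 CPM with DMSO and 12.8, 11.8 and 12.0 CPM with AMG900. The groups did not overlap, and SLC38A2 had the largest fall of any member in either line. It fell by 1.59 ± 0.10 (SE) on the log2 scale, 3.01-fold lower (edgeR adjusted p = 2.52e-06). SLC38A1 (chr12:46576846-46663800), which lies in the same region of chromosome 12, gave 136, 183, 157 and 154 CPM with DMSO and 84.2, 92.4, 83.1 and 77.7 CPM with AMG900 in A549. The groups did not overlap, and SLC38A1 fell by 0.91 ± 0.09 (SE) on the log2 scale, 1.87-fold lower (edgeR adjusted p = 1.91e-06). H1792 values were 52.0, 56.7 and 53.9 CPM with DMSO and 30.9, 32.7 and 32.5 CPM with AMG900. No treated library reached the controls, and SLC38A1 fell by 0.76 ± 0.06 (SE) on the log2 scale, 1.69-fold lower (edgeR adjusted p = 1.02e-05).

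SLC7A11 (chr4:139085251-139163503), the xCT light chain, gave 57.1, 46.0, 46.1 and 48.4 CPM with DMSO and 34.5, 32.8, 30.4 and 27.7 CPM with AMG900 in A549. All treated libraries were lower, and SLC7A11 fell by 0.65 ± 0.11 (SE) on the log2 scale, 1.57-fold lower (edgeR adjusted p = 1.58e-04). In H1792 it gave 40.4, 49.7 and 44.1 CPM with DMSO and 24.9, 24.3 and 24.3 CPM with AMG900. The treated libraries nearly coincided below the controls, and SLC7A11 fell by 0.87 ± 0.08 (SE) on the log2 scale, 1.83-fold lower (edgeR adjusted p = 1.96e-05). Its transcript has the lowest GC content of the 39 (35.4%), and with the GC spline its values were -0.14 in A549, without a call, and -0.21 in H1792, called lower.

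The neutral amino acid exchangers SLC1A5 and SLC1A4 fell in A549 only. SLC1A5 (chr19:47278140-47291851), which carries glutamine, gave 778, 962, 964 and 1009 CPM with DMSO and 628, 621, 643 and 672 CPM with AMG900 in A549. Even the lowest control, replicate 1, was above all treated libraries, and SLC1A5 fell by 0.54 ± 0.08 (SE) on the log2 scale, 1.45-fold lower (edgeR adjusted p = 5.63e-05). In H1792 it gave 1041, 1027 and 1048 CPM with DMSO and 1071, 1062 and 1027 CPM with AMG900. Those groups overlapped, with a log2 fold change of 0.02 ± 0.05 (SE) (edgeR adjusted p = 0.732), but with the GC spline the value was -0.31 and was called lower. SLC1A4 (chr2:65215611-65250999) gave 46.3, 66.0, 63.4 and 55.8 CPM with DMSO and 37.1, 31.9, 39.1 and 32.1 CPM with AMG900 in A549. Controls were spread out but stayed above the treated libraries, and SLC1A4 fell by 0.73 ± 0.12 (SE) on the log2 scale, 1.66-fold lower (edgeR adjusted p = 1.34e-04). H1792 showed 62.8, 63.3 and 59.9 CPM with DMSO and 62.2, 63.7 and 60.6 CPM with AMG900, overlapping values with a log2 fold change of 0.00 ± 0.06 (SE) (edgeR adjusted p = 0.969). The leucine transporter SLC7A5 and its heavy chain SLC3A2 fell by 0.27 and 0.23 on the log2 scale in A549 and stood at -0.02 and -0.08 in H1792. Both were called lower in both lines with the GC spline, SLC7A5 at -0.68 and -0.35 and SLC3A2 at -0.55 and -0.35 in A549 and H1792. Reads of SLC7A5 can be shared with its pseudogenes SLC7A5P1 and SLC7A5P2, and how such reads were counted is not given in the sources used here. The SLC3A2 call was kept in 2 of 8 fits with a library left out, those without DMSO replicate 1 and without AMG900 replicate 4.

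**Figure D2:**
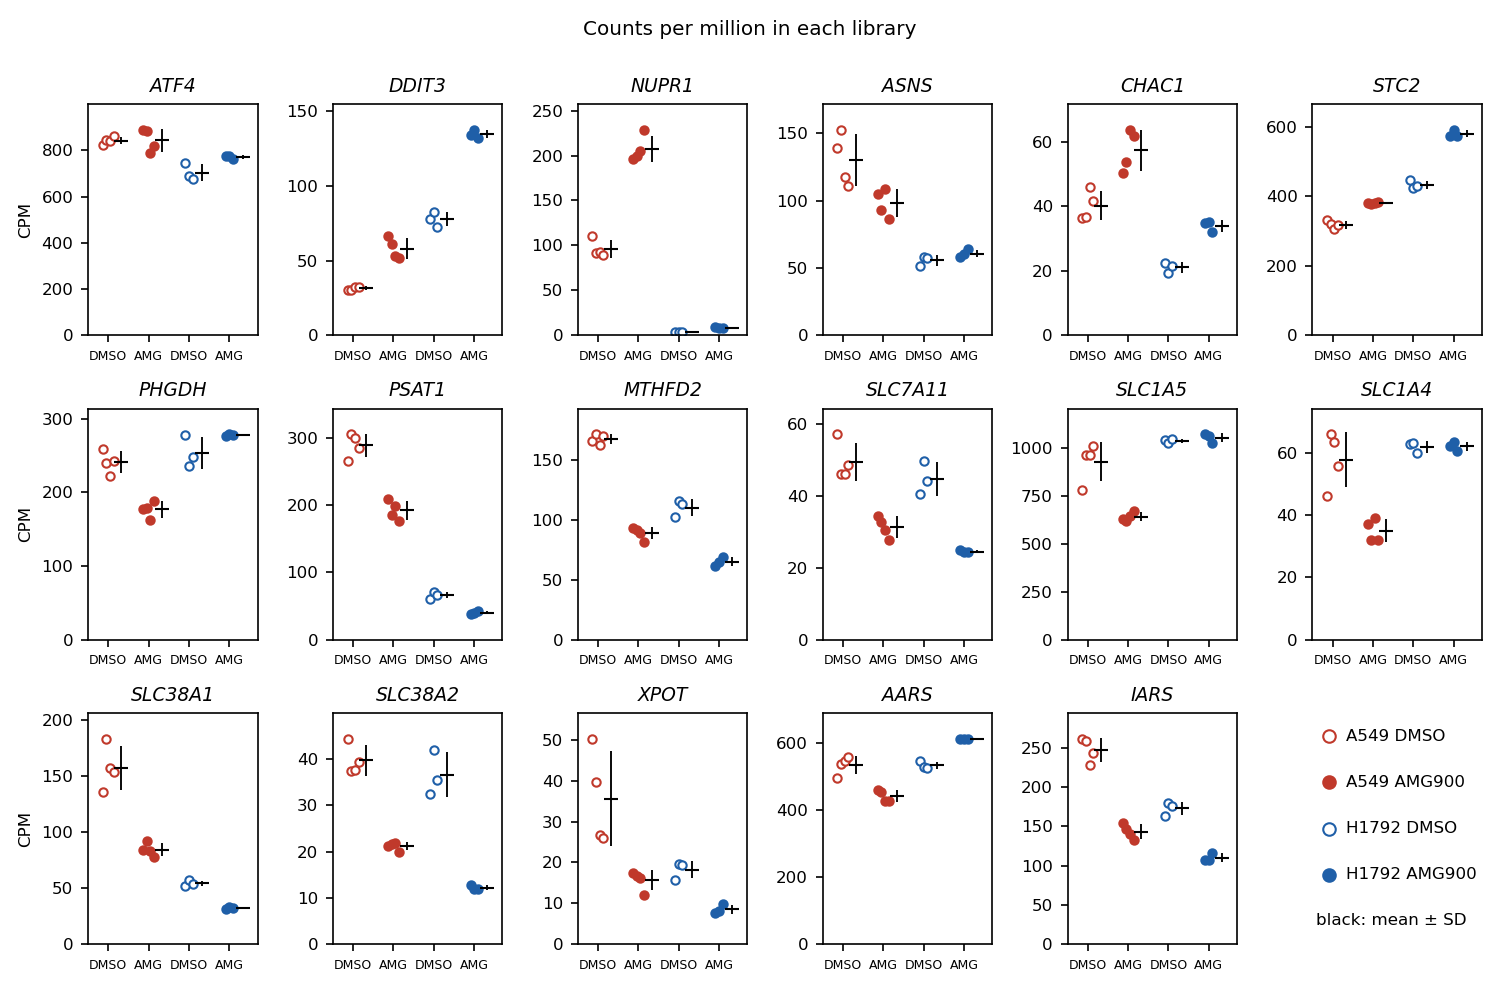
Levels in CPM (vertical axes) in every library for ATF4 and the 16 other members described in full, with DMSO (open) and AMG900 (filled) libraries of A549 (red, 4 each) and H1792 (blue, 3 each) and the mean with SD in black. Each vertical axis starts at 0. DDIT3, NUPR1, CHAC1 and STC2 are higher with AMG900 in both lines, and PSAT1, MTHFD2, SLC7A11, SLC38A1, SLC38A2, XPOT and IARS are lower.

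The 12 tRNA charging genes were divided, as were all genes tested. In A549, SARS and WARS rose and XPOT, AARS, IARS, LARS, MARS, NARS and TARS fell. In H1792, AARS, CARS and SARS rose and XPOT, IARS and LARS fell. That made 2 higher and 7 lower in A549 (background 17.2% and 17.8%), and 3 and 3 in H1792 (background 16.2% and 18.8%). With the GC spline, 1 was higher and 4 lower in A549 (background 13.7% and 18.7%). In H1792 the spline gave 2 and 3 (background 14.5% and 23%). XPOT (chr12:64798172-64844905), which exports tRNA from the nucleus, gave 50.3, 39.6, 26.6 and 25.9 CPM with DMSO and 17.5, 16.7, 16.1 and 12.0 CPM with AMG900 in A549. Controls were spread widely but did not overlap with the treated libraries, and XPOT fell by 1.16 ± 0.20 (SE) on the log2 scale, 2.24-fold lower (edgeR adjusted p = 2.35e-04). Without A549 DMSO replicate 1, its highest library, the fall was 0.98. H1792 gave 15.7, 19.6 and 19.3 CPM with DMSO and 7.56, 8.01 and 9.79 CPM with AMG900. Every treated library was lower, and XPOT fell by 1.10 ± 0.12 (SE) on the log2 scale, 2.15-fold lower (edgeR adjusted p = 5.24e-05).

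IARS (chr9:94972489-95056136), the isoleucyl-tRNA synthetase IARS1, gave 262, 259, 229 and 244 CPM with DMSO and 154, 146, 141 and 133 CPM with AMG900 in A549. The groups were well apart, and IARS fell by 0.79 ± 0.07 (SE) on the log2 scale, 1.73-fold lower (edgeR adjusted p = 7.29e-07). In H1792 its levels were 164, 179.8 and 176 CPM with DMSO and 107, 107 and 116 CPM with AMG900. They did not overlap, and IARS fell by 0.65 ± 0.06 (SE) on the log2 scale, 1.57-fold lower (edgeR adjusted p = 1.72e-05). LARS, the leucyl-tRNA synthetase, fell by 0.69 in A549 and by 0.41 in H1792 on the log2 scale. XPOT and IARS kept their calls in both lines with the GC spline, whereas LARS lost both, and the H1792 call of LARS was also lost without AMG900 replicate 1 or 2. Its values with the spline were -0.33 and -0.14.

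AARS (chr16:70285886-70323610), the alanyl-tRNA synthetase AARS1, was called in opposite directions in the lines, as were 1.17% of the genes tested in both. In A549 it gave 495, 539, 546 and 557 CPM with DMSO and 461, 455, 426 and 427 CPM with AMG900. The groups did not overlap, and AARS fell by 0.27 ± 0.06 (SE) on the log2 scale, 1.21-fold lower (edgeR adjusted p = 0.00257). In H1792 it gave 546, 529.6 and 527 CPM with DMSO and 612, 613 and 611 CPM with AMG900. The treated libraries nearly coincided above the controls, and AARS rose by 0.20 ± 0.05 (SE) on the log2 scale, 1.15-fold higher (edgeR adjusted p = 0.00461). The H1792 call was lost without DMSO replicate 3, without any 1 of the 3 AMG900 libraries and with the GC spline, at 0.03. The A549 call was lost without DMSO replicate 3 or 4 or AMG900 replicate 3 and kept with the GC spline, at -0.43. SARS, the seryl-tRNA synthetase, rose by 0.33 and 0.22, where the H1792 call was lost without DMSO replicate 3 or AMG900 replicate 1 or 2, and WARS, the tryptophanyl-tRNA synthetase, rose by 0.43 in A549. Both SARS calls were lost with the GC spline, at 0.19 and 0.07, and the WARS call was kept. CARS, for cysteine, rose by 0.31 in H1792. MARS, NARS and TARS, for methionine, asparagine and threonine, fell by 0.30, 0.37 and 0.53 in A549 on the log2 scale. NARS (-0.03) and TARS (-0.25) lost these calls with the GC spline, and MARS kept its own (-0.45) and was also called lower in H1792 (-0.16). EPRS, for glutamate and proline, stood at -0.36 and -0.14, and GARS, for glycine, at -0.24 and 0.17, without calls. GARS was called higher in H1792 with the GC spline, at 0.20.

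GC content moved with the change across the members as it did across all genes. Spearman's rho between log2 fold change and transcript GC content was 0.617 in A549 and 0.604 in H1792 over the 39 members, and 0.499 and 0.481 over the 12792 and 14377 tested genes with a GC value. These are correlations across genes, which share libraries and are not independent. After the GC spline rho over the members was -0.01 and 0.06. Called in both lines with and without the spline were DDIT3 and NUPR1, higher, and PSAT1, MTHFD2, SLC38A1, SLC38A2, XPOT and IARS, lower. With the spline, whatever the call without it, 2 members were called higher and 12 lower in both lines, where 4.74% and 10.8% of 12625 genes were. The share of all genes called in both lines with and without the spline was not counted. Of the markers, KRT8, KRT18 and CD14 in A549 and KRT19 in H1792 had no call with the spline. The part of GC content in the other calls was not tested.

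**Figure D3:**
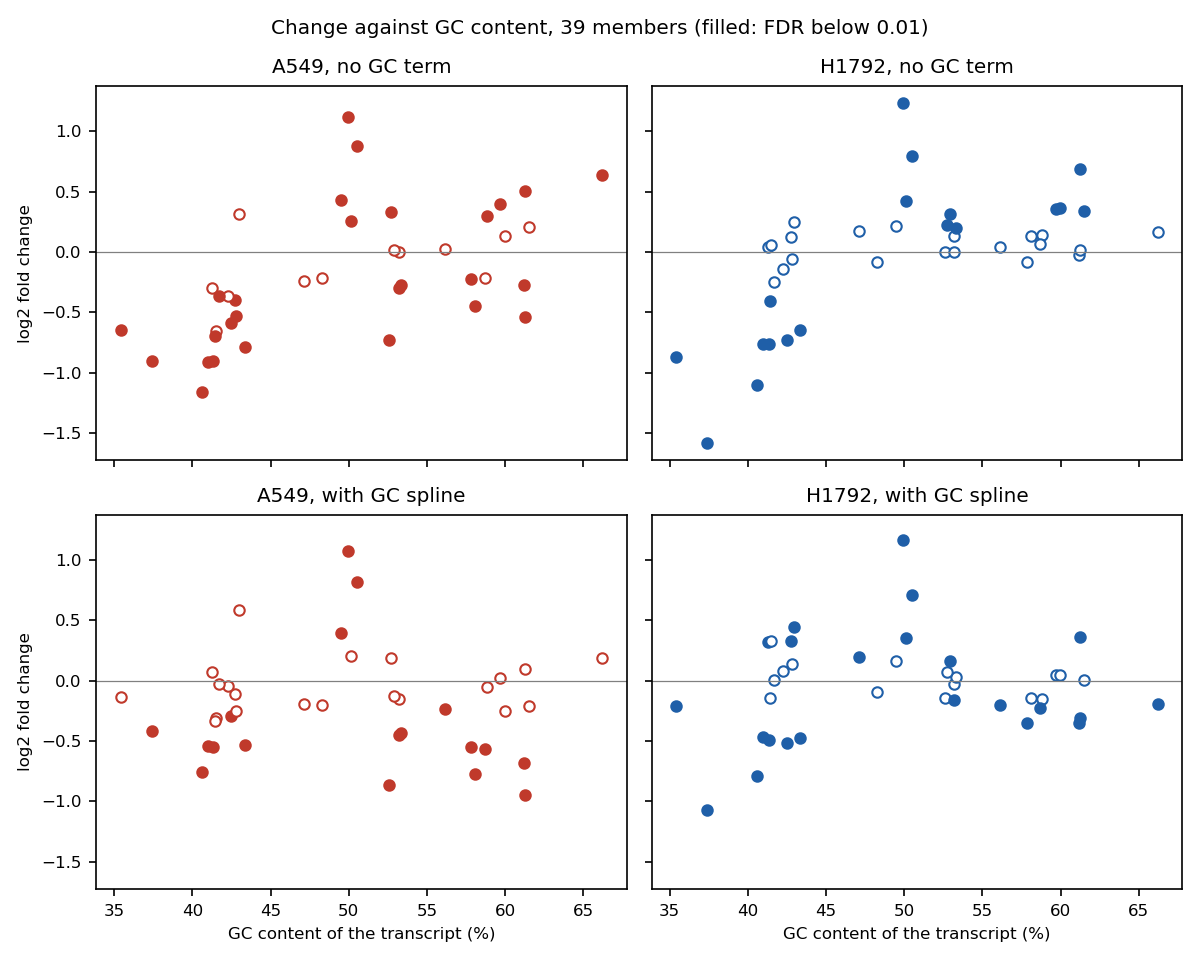
Log2 fold change of AMG900 against DMSO (vertical axis) against GC content of the transcript in percent (horizontal axis) for the 39 members in A549 (left) and H1792 (right), without (top) and with (bottom) a GC spline in the fit. Filled points have an FDR below 0.01. Members under 45% GC are mostly below 0 in the top panels, and rho falls from 0.617 to -0.01 in A549 and from 0.604 to 0.06 in H1792.

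The lines were then compared for the change itself, as the difference between the AMG900 effects in H1792 and A549 in one edgeR fit of the 14 libraries. Of the 39 genes, 4 had a higher change in H1792 and 1 a lower one, where 5.37% and 9.17% of 14769 genes did. The median difference was 0.07 over the members and -0.10 over all genes tested. SLC1A4 differed by 0.67 ± 0.14 (SE) (edgeR adjusted p = 0.00156), PHGDH by 0.50 ± 0.10 (SE) (edgeR adjusted p = 0.00127) and SLC1A5 by 0.48 ± 0.11 (SE) (edgeR adjusted p = 0.00255). For these 3 genes the A549 groups did not overlap and the H1792 groups did. AARS differed by 0.39 ± 0.08 (SE) (edgeR adjusted p = 0.00165). SLC38A2 fell further in H1792, with a difference of -0.76 ± 0.14 (SE) (edgeR adjusted p = 4.68e-04). All 5 differences were called in each of the 14 fits with a library left out and with the GC spline. ASNS, called in A549 alone, had a difference of 0.45 that was not called (edgeR adjusted p = 0.023). For DDIT3, NUPR1 and CHAC1 the difference was -0.15 (95% interval -0.40 to 0.10), 0.04 (-0.23 to 0.30) and 0.11 (-0.20 to 0.42). Without A549 DMSO replicate 1 CEBPB (-0.73) and MARS (0.27) were called as well, 5 members higher and 2 lower. The GC spline gave 5 higher and 3 lower (background 6.79% and 11.4%), and DESeq2 8 higher and 1 lower. Over all genes, 793 were called higher and 1355 lower, with scaling by total counts 988 and 1047, and with DESeq2 size factors 1012 and 1033.

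**Figure D4:**
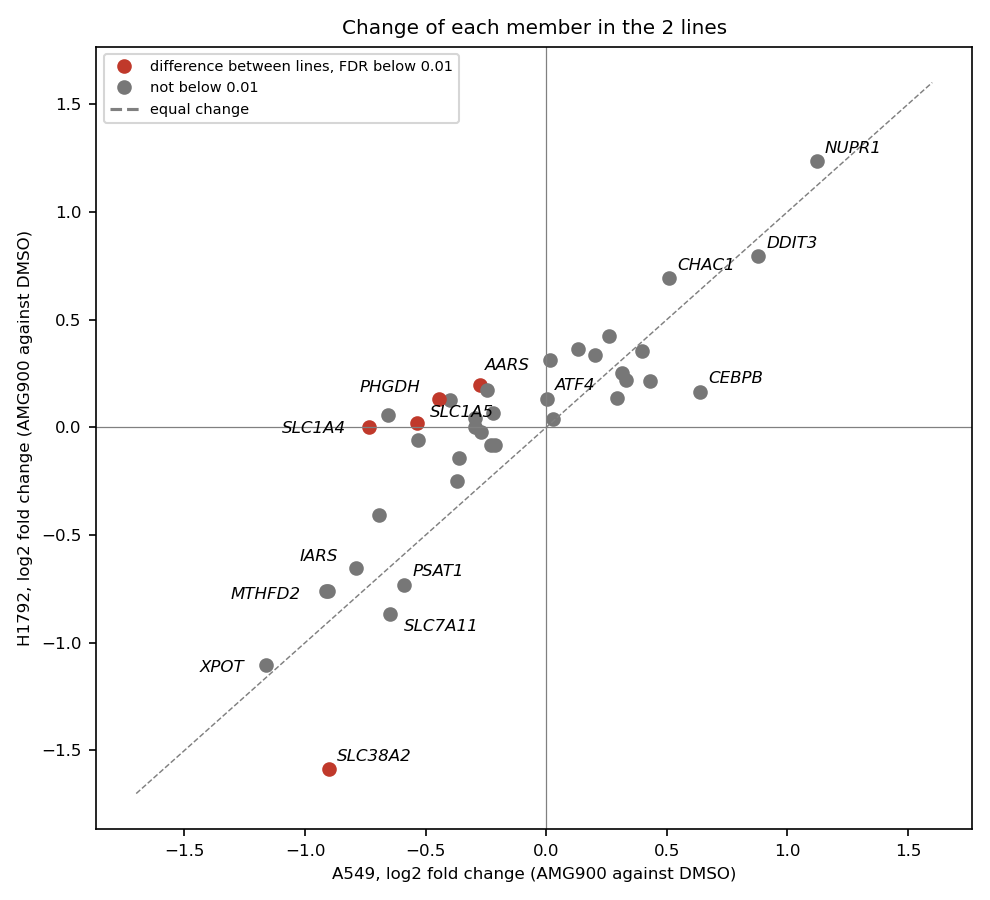
Log2 fold change of AMG900 against DMSO in H1792 (vertical axis) against that in A549 (horizontal axis) for the 39 members, with equal change as a dashed line. The 5 members whose change differed between the lines at an FDR below 0.01 are in red. PHGDH, SLC1A4, SLC1A5 and AARS are above the line, and SLC38A2 is below it.

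Without AMG900 the lines differed in most of these genes, as they did in most of all genes tested. In the DMSO libraries, taken at 48 h like the treated ones, 8 members were higher and 19 lower in H1792 than in A549 (background 34.2% and 31.9% of 14769 genes), with a median difference of -0.21 beside 0.04 over all genes tested. On the log2 scale the lowest values were those of NUPR1 (-4.64) and PSAT1 (-2.04). The transporters SLC7A5 (-1.53), SLC38A1 (-1.44) and SLC3A2 (-0.97) were lower as well, as were TRIB3 (-1.15), ASNS (-1.12) and CHAC1 (-0.85). Higher in H1792 were CTH (3.08), DDIT3 (1.40), MARS (0.79), CBS (0.79), SARS (0.73), STC2 (0.54), SLC6A9 (0.47) and SLC1A5 (0.26). ATF4 differed by -0.16, without a call, and SLC38A2, SLC7A11 and LARS by -0.01, -0.03 and -0.06. Scaling by total counts moved the median over all genes to -0.07 and gave 7 members higher and 21 lower. The GC spline also gave 7 and 21 (background 35.4% and 32.2%). Under it ATF4 (-0.14) and SLC7A11 (-0.26) were called lower in H1792, and SLC1A5 (0.05) lost its call. Without A549 DMSO replicate 1 the numbers were 9 and 22, with ATF4 then called lower (-0.18).

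**Figure D5:**
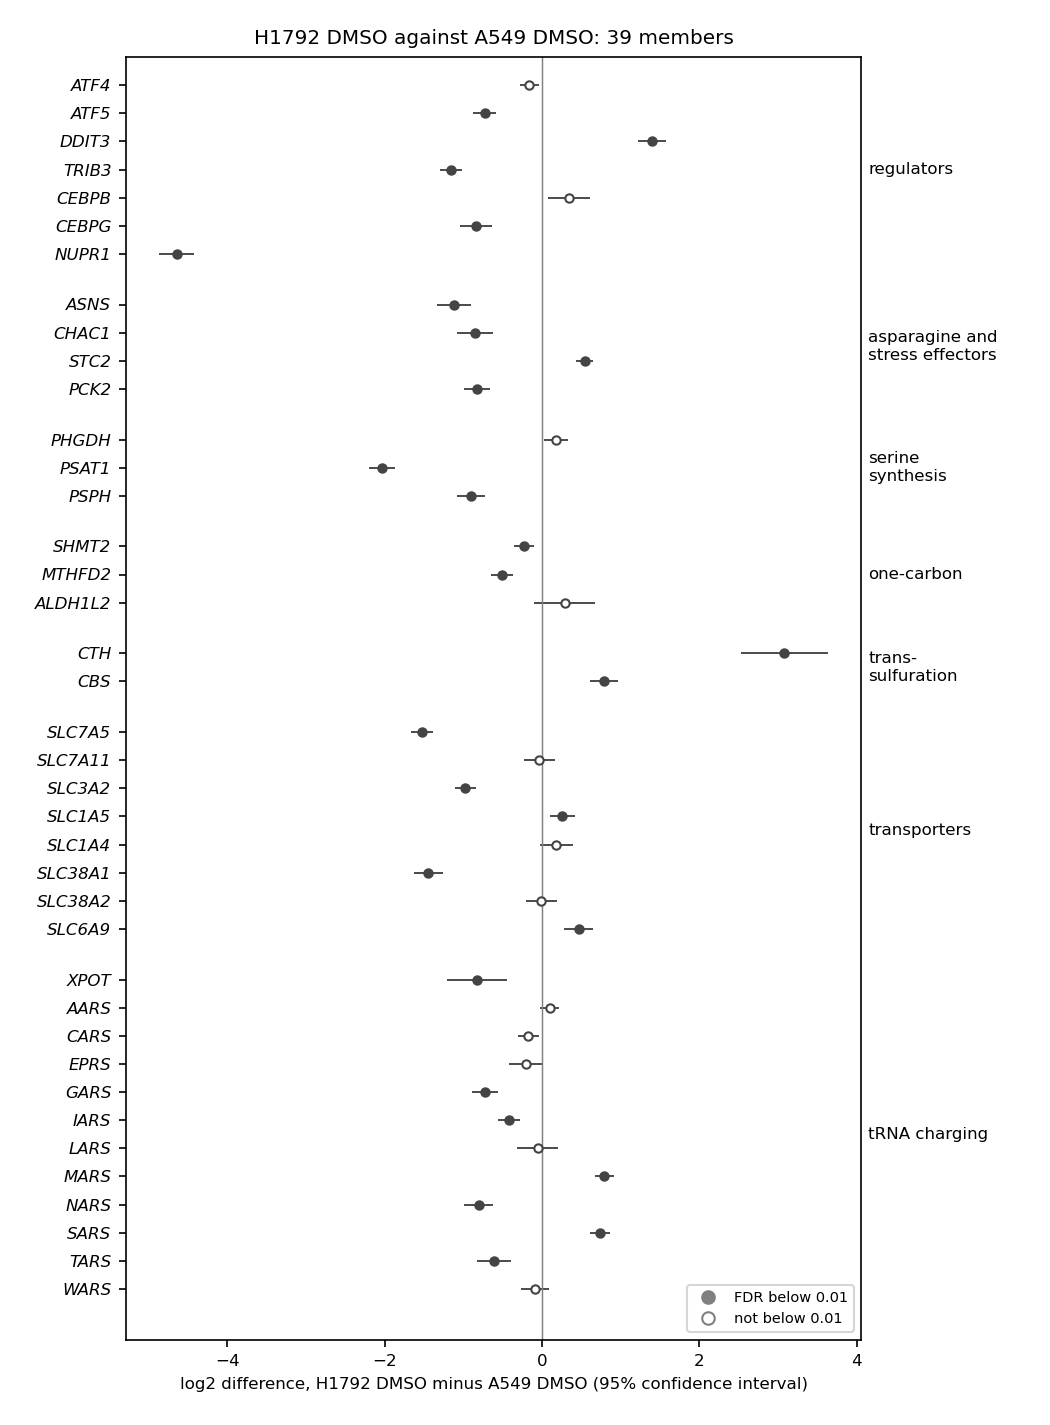
Log2 difference between H1792 DMSO and A549 DMSO (horizontal axis, with 95% confidence interval) for the 39 members, grouped by role. Filled points have an FDR below 0.01. NUPR1 is farthest to the left (-4.64) and CTH farthest to the right (3.08).

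The genes around this program that are not members were counted from lists of the same pathways. Beside all these counts, 17.2% of genes were called higher and 17.8% lower in A549, and 16.2% and 18.8% in H1792. With the GC spline the shares were 13.7% and 18.7% in A549, and 14.5% and 23% in H1792. Of 15 genes for the eIF2 kinases, eIF2 and eIF2B subunits and the eIF2 phosphatase, 2 rose and 5 fell in A549, and 1 rose and 4 fell in H1792. PPP1R15A (GADD34), which brings the phosphatase to eIF2, rose by 0.73 and 0.80, and EIF2B2 rose by 0.36 in A549. The constitutive partner PPP1R15B fell by 0.79 and 0.78 on the log2 scale, the endoplasmic reticulum kinase EIF2AK3 (PERK) by 1.04 and 0.86, the alpha subunit EIF2S1 by 0.62 and 0.75 and GCN1 by 0.42 and 0.27. EIF2S3 fell by 0.29 in A549. The kinase of amino acid shortage, EIF2AK4 (GCN2), stood at 0.05 and -0.06. The list had 3 higher and 2 lower in A549 and 4 and 4 in H1792 with the GC spline, under which PPP1R15A, PPP1R15B and GCN1 kept their calls in both lines and EIF2AK3 (-0.84), EIF2S1 (-0.15) and EIF2S3 (0.08) lost theirs in A549.

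Among other reported ATF4 targets, 3 of 15 tested rose and 4 fell in A549, and 7 of 17 rose and 5 fell in H1792. The GC spline gave 3 higher and 6 lower in A549, and 3 and 3 in H1792, where the median of the list went from 0.23 to -0.05. The A549 genes were ATF3 (1.43), GDF15 (1.26) and SESN2 (0.87), higher, and SLC7A1 (-0.80), VLDLR (-0.74), BCAT1 (-0.73) and GPT2 (-0.36), lower. In H1792, FGF21 had the largest rise (2.24) at under 1.28 CPM in every library, GDF15 rose by 1.67, and BCAT1 (-0.84), VLDLR (-0.79), ERO1A (-0.60), SLC7A1 (-0.45) and DDIT4 (-0.25) fell. BCAT1 in A549 and VLDLR and ERO1A in H1792 lost their calls with the GC spline. Of 14 other genes of the folate and methionine cycles, none rose, 7 fell in A549 and 6 fell in H1792, and with the GC spline 6 in each. MTHFD2L had the largest fall in H1792 (-0.97), which was not called with the GC spline (-0.44).

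The other cytosolic synthetases, which were not among the members, were divided too. QARS rose in both lines (0.34 and 0.27) and RARS fell in both (-0.81 and -0.52). FARSB and KARS fell in A549 (-0.58 and -0.35) and rose in H1792 (0.44 and 0.19), with differences of 0.94 and 0.47 that were called, and DARS fell in H1792 (-0.84). That made 1 of 8 higher and 3 lower in A549, and 3 of 9 higher and 2 lower in H1792. The numbers with the GC spline were 0 and 3 in A549, and 2 and 2 in H1792, and QARS (0.13 and 0.07) and RARS (-0.45 and -0.23) lost their calls in both lines, as did FARSB in A549 (-0.17). Of the 3 scaffold genes of the synthetase complex, AIMP2 fell in A549 (-0.72) and none was called in H1792, where AIMP1 was called higher with the GC spline (0.71). Of 17 mitochondrial synthetases, 3 rose and 5 fell in H1792, and with the GC spline 2 and 8. IARS2 fell most in both, by 0.86 and 1.31 on the log2 scale, and in A549 TARS2 rose (0.38) and LARS2 fell (-0.53). The H1792 rises were VARS2 (0.85), SARS2 (0.39) and CARS2 (0.24), and the other falls were MARS2 (-1.06), WARS2 (-0.51), NARS2 (-0.44) and EARS2 (-0.34). TARS2 in A549 and SARS2, CARS2 and WARS2 in H1792 lost their calls with the GC spline. The last list held 15 genes of the unfolded protein response of the endoplasmic reticulum, chaperones and others, which act beside ATF4. Of these, CALR (0.65), CRELD2 (0.55) and HYOU1 (0.54) rose and SEL1L (-0.85) fell in A549. In H1792 MANF rose (0.34) and SEL1L (-1.20), EDEM1 (-0.78), DNAJB9 (-0.63), PDIA4 (-0.30) and XBP1 (-0.27) fell. HSPA5 (BiP), the main chaperone of that compartment, stood at 0.25 and -0.04, without a call. This list had 4 higher and 1 lower in A549 and 3 and 7 in H1792 with the GC spline, under which CRELD2 in A549 and DNAJB9 in H1792 lost their calls.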

How the data were processed

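RNA of 8 A549 and 6 H1792 libraries was measured on an Illumina NextSeq 500. The authors deposited 1 table of raw read counts per gene symbol for each line, without normalization, and the submitters' processing notes name STAR, HTSeq and hg19 (GRCh37), with options and versions not given in the sources used here. In the H1792 table, 28 of 26760 entries carry date names in place of symbols (0.108% of counts) and were left out.

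Genes were kept by filterByExpr and tested in each line with the quasi-likelihood test of edgeR 4.0.16 (R 4.3.3, TMM scaling, FDR 0.01, Benjamini-Hochberg). The interaction of line and treatment, and the lines in DMSO, were tested in one fit of all 14 libraries. DESeq2 1.42.0 was an alternative. GC content and positions came from canonical transcripts of GENCODE v44 on GRCh37, available for 97.1% and 95.7% of the genes tested in A549 and H1792. Other alternatives were total-count and DESeq2 size-factor scaling, filters, thresholds, a replicate block, a GC spline with 5 degrees of freedom and each library left out. The fit was tested on simulated counts with 200 changed genes. Of the 1.5-fold changes, 42.5% were called in A549, 61.4% in H1792 and 26.9% in the interaction. For 2-fold changes the shares were 86%, 85.7% and 73%. A gene without a call may therefore still have changed. Of the calls, 0.68%, 4.09% and 1.53% were false, with the FDR set at 0.01. The biological coefficient of variation was 12.8% in A549 and 9.60% in H1792. Replicates differed by more than counting error. In their deviations from group means, same-numbered DMSO and AMG900 libraries had correlations of -0.06 to 0.04. No pairing by number was seen in these values, which cannot show that none existed, and the main fit did not pair the libraries.

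The members, lists and alternatives were chosen with earlier results of these data known. Values in every library are given for ATF4, for up to 2 members per role group and line with the largest called change, and for members with a called interaction. Genes outside the 39 are named from the lists where a count was 5 or fewer or a change was the largest of its list, and CDH1, EPCAM, PTPRC, CD3E, EIF2AK4 and HSPA5 were named after their values were seen. Some genes of these lists are not reported here.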

Additional observations from a re-analysis of the deposited data

Results flagged for a closer look

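The effect of AMG900 differed between the lines for 5 members in the edgeR test of the interaction. As H1792 minus A549 on the log2 scale, the differences were 0.67 for SLC1A4, 0.50 for PHGDH, 0.48 for SLC1A5, 0.39 for AARS and -0.76 for SLC38A2. Line, medium and table cannot be told apart in them.

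Among 34 groups of 4 libraries tested for a library far from the rest, 1 stood out, and chance alone gives about 1 in 20. It was NUPR1 in A549 with DMSO, where replicate 1 gave 110.4 CPM and the other 3 gave 89.2 to 92.8 CPM, a gap of 0.83 of the group's range. Without that library NUPR1 rose by 1.19 in A549, against 1.12 with it.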

How the results depend on the processing

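Requiring a 2-fold change left 1 member higher and 1 lower in A549, 1 and 2 in H1792, 0 and 0 in the interaction, and 2 and 6 in DMSO. With the GC spline, higher calls in A549 numbered 3 (also 3 with the replicate block added), lower calls in H1792 numbered 14, and lower interaction calls 3 (2 with the block). DESeq2 gave 8 higher interaction calls, an FDR of 0.05 gave 7 higher and 2 lower, and no filter gave 2 lower. SLC1A5 in H1792 turned from 0.02 to -0.31 with the GC spline and to -0.31 with the block added. With a library left out, calls ranged in A549 from 7 to 9 higher and 16 to 21 lower, in H1792 from 8 to 14 higher and 7 to 11 lower, in the interaction from 4 to 5 and 1 to 2, and in DMSO from 7 to 9 and 18 to 22. The replicate block alone gave 9 higher and 17 lower in A549, 9 and 8 in H1792, 3 and 1 in the interaction and 8 and 18 in DMSO. AARS lost its calls in A549, in H1792 and in the interaction under it, and no other described member did. The causes were not tested. Among the values of described members under an alternative, 1307 kept their side of the threshold, 68 lost a call and 17 gained one, and 2 reversed. A change of sign without a call on either side was not counted. Counting depth limits CTH, at 0.711 to 1.97 CPM in A549.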
